A study of Mus musculus with 16 samples.

Results

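The genes that carry glucose into the cell, break it down to pyruvate and export lactate were followed in 16 PyMT mammary tumours. Members were the rows whose gene symbol is one of 33 named genes, and all 33 symbols were found among the 55146 genes measured. They comprise 2 glucose transporters, 3 hexokinases, the phosphofructokinases and their bifunctional regulators, the lower glycolytic enzymes, 2 lactate dehydrogenases, 2 monocarboxylate carriers and 4 kinases of pyruvate dehydrogenase. Of these, 30 reached at least 1 FPKM (fragments mapped to a gene, divided by its transcript length in kilobases and by the M fragments mapped in the library, M standing for mega) in at least 4 libraries and were tested, while Slc2a3, Pklr and Pdk4 did not.

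The 4 groups of 4 tumours were a combination group given anti-PD-L1 and sonidegib, a sonidegib group (20 mg/kg each day), an anti-PD-L1 group (5 mg/kg, 2 times a week) and a vehicle group, each over 28 days. All tumours, vehicle included, came from MMTV-PyMT mice aged 12 weeks, in which a mammary tumour virus promoter drives the polyoma middle T antigen in mammary epithelium, and grew in fat pad 4 of FVB recipients, an inbred strain. Sonidegib blocks Smoothened, which passes on the Hedgehog signal, and anti-PD-L1 blocks the ligand of the T cell checkpoint receptor PD-1. The labels name no separate donor for each tumour; the spread behind each p-value is that between these tumours only.

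Glucose enters most cells through facilitated carriers of the Slc2a family, and hexokinase traps it as glucose 6-phosphate. Phosphofructokinase commits it to glycolysis, and the bifunctional Pfkfb enzymes set the level of the fructose 2,6-bisphosphate that activates that step. Lactate dehydrogenase turns pyruvate into lactate, which leaves through proton-coupled monocarboxylate carriers, while the Pdk kinases hold pyruvate back from mitochondrial oxidation. Many tumours run this route at a high rate even with oxygen present, and in low oxygen the transcription factor HIF-1 raises the transcription of many of its genes through sites with the core ACGTG (here the A form) or GCGTG (the G form).

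The upstream sequences of 4 members are shown because their products stand at the entry of glucose, its trapping, the formation of lactate and its export, and because the levels of all 4 were lowest on average in the combination group. Each run is the 250 bases before a RefSeq start, 5′ to 3′ on the gene's strand, in build GRCm38.p6. Capitals mark either form on either strand. A run of 5 capitals that starts with C is a match on the other strand, and a run of 6 capitals is a palindrome that counts on both strands. The Slc2a1 run is chr4:119108495-119108744 on the plus strand, and that of Hk2 is chr6:82774455-82774704 on the minus strand. The Ldha run is chr7:46845554-46845803 and that of Slc16a3 chr11:120948817-120949066, both on the plus strand.

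Slc2a1: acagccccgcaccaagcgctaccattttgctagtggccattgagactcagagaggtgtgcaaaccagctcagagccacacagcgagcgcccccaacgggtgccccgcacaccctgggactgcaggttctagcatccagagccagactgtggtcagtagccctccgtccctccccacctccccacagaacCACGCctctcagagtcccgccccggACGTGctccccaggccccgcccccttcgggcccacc
Hk2: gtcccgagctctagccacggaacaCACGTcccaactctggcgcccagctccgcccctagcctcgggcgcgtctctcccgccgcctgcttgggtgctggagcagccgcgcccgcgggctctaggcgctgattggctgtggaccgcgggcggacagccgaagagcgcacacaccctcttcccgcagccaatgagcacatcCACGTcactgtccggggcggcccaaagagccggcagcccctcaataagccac
Ldha: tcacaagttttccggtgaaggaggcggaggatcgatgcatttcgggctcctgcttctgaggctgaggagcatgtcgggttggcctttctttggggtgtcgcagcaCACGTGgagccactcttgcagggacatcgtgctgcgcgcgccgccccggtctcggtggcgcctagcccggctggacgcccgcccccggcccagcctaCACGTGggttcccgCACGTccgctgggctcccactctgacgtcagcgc
Slc16a3: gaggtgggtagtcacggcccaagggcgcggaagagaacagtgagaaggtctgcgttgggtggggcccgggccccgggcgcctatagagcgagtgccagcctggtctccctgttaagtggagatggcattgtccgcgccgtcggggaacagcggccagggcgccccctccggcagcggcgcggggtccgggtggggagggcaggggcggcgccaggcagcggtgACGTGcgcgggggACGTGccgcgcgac

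The search covered a window from 250 bases before to 50 after each start. Ldha held 5 matches to the A form in this window and 2 to the G form, the last 2 lying after the start and not shown. Slc2a1 held 1 of each, and Hk2 and Slc16a3 each held 2 matches to the A form and none to the G form. The A form was present in 44.9% of the 49 windows of the members, against 19.6% of all 32851 windows. The G form was present in 51.0% of member windows and 32.4% of all. At the level of genes, 26 of the 32 members with an entry held at least 1 of the motifs in at least 1 window, against 46.7% of all 27025 genes. Members had more windows per gene (49 for 32 genes) than all genes did (32851 for 27025). Slc2a3 had no entry. Matches of letters are a description and say nothing of whether a factor is bound.

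Members differed in level over a wide range, compared here as FPKM, which is per length. Aldoa, the main aldolase of most tissues, had the highest median over the 16 libraries at 1039.8 FPKM, followed by the pyruvate kinase gene Pkm at 559, Ldha at 524 and the enolase Eno1 at 371 FPKM. Slc2a1 had a median of 45.3 FPKM and the lactate exporter Slc16a3 one of 16.6 FPKM. The neuronal-type glucose transporter Slc2a3 lay below 1 FPKM in all 16 libraries, between 0.226 and 0.781 FPKM. Pklr, the pyruvate kinase of liver and red cells, was listed at 0 in 13 libraries and reached 0.0117 FPKM at most. Copies of near-identical sequence can share fragments with some members: Eno1b took 27.3 to 36.0% of the FPKM sum of Eno1 and Eno1b, Pgk1-rs7 17.8 to 20.6% of its sum with Pgk1, Pgam1-ps2 12.5 to 19.1% of its sum with Pgam1, and Ldha-ps2 1.34 to 1.78% of its sum with Ldha. The levels of these 4 members are uncertain to that extent. The Eno1b share was 27.3 to 34.8% in vehicle and 34.65 to 35.67% in combination libraries. Pgam1-ps2 ran the other way (13.3 to 19.1% and 12.5 to 13.9%), as did Ldha-ps2 (1.52 to 1.78% and 1.34 to 1.61%). For Pgk1-rs7 the combination range (18.3 to 19.1%) lay within that of vehicle (17.9 to 20.6%). The part of these shares in the changes of the members was not tested.

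The tumours held the epithelial markers Epcam, Krt8, Krt18, Krt19 and Cdh1 at a summed level of 793 to 1644 FPKM in combination, 838 to 1869 in sonidegib, 909 to 1294 in anti-PD-L1 and 467 to 2000 in vehicle libraries. Depth, read from smeared steps of the FPKM values and so approximate, ranged over 33.6 to 58.5 M fragments. Vehicle replicate 3 stood apart: the median of all its genes was 0.764 log2 units below their medians over the 16 libraries, against shifts of -0.129 to 0.149 in the other 15. It touches each comparison with vehicle, and without scaling the median gene was 0.26 log2 units higher in combination than in vehicle tumours, 0.33 in sonidegib and 0.30 in anti-PD-L1. In bulk tumour RNA, fewer cells of a type and less RNA per cell cannot be told apart. Library numbers run through the groups in turn, so library order and treatment cannot be told apart.

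**Figure D1:**
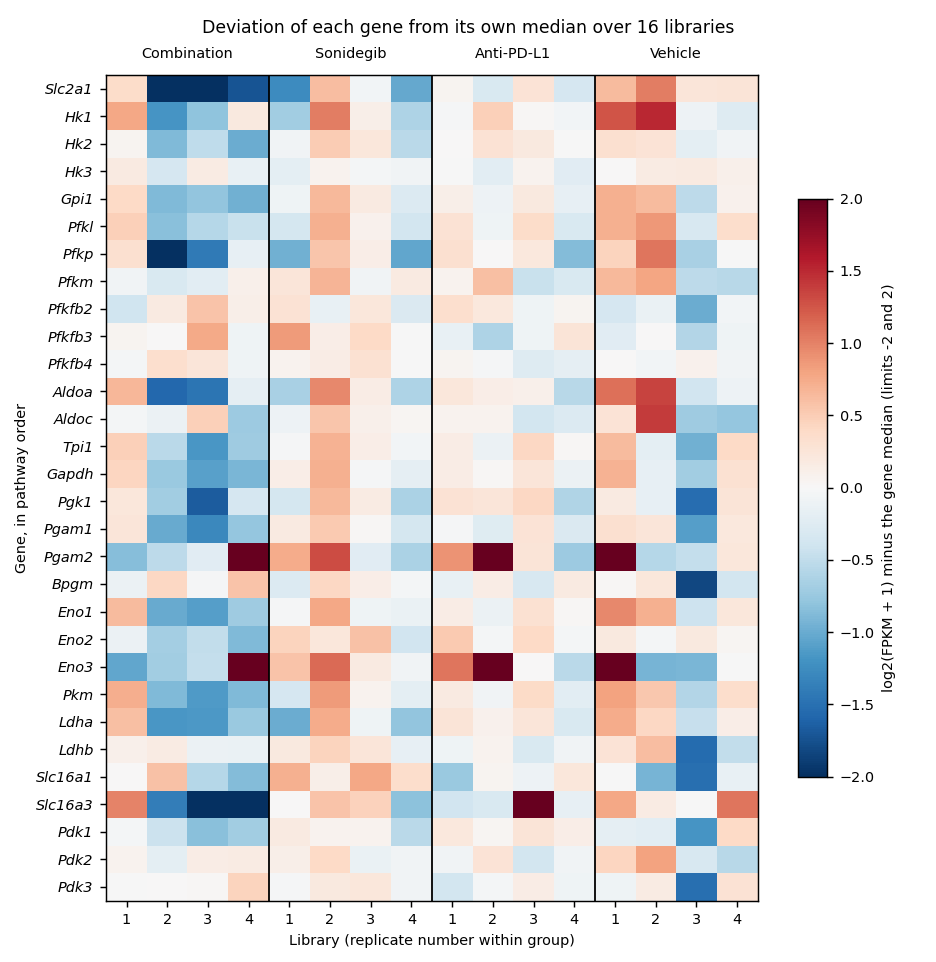
Deviation of 30 tested members (rows, in pathway order) from their own median over 16 libraries (columns, by group and replicate), as log2(FPKM + 1), blue below and red above the median, with colours capped at -2 and 2. Combination replicates 2, 3 and 4 had 23, 23 and 22 members below their median, and combination replicate 1 had 10. Such counts were not particular to that group: sonidegib replicate 4 had 27, vehicle replicate 3 had 26 and anti-PD-L1 replicate 4 had 23. The remaining libraries had 1 to 16.

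The glucose transporter Slc2a1 was lower in the combination tumours. Slc2a1 (chr4:119108711-119137983, plus strand) encodes GLUT1, the main basal glucose carrier of many tumours. It was at 58.5, 7.73, 9.01 and 13 FPKM in combination replicates 1 to 4, at 18.3, 70.2, 43.6 and 21.7 in sonidegib, at 46.9, 36.3, 55.1 and 35.5 in anti-PD-L1, and at 70.7, 93.2, 54.0 and 54.5 FPKM in vehicle replicates. Combination replicates 2, 3 and 4 lay below every vehicle library, whereas combination replicate 1 lay within the vehicle range. The log2 change was -2.04 (SE 0.50, limma, adjusted p = 0.0346), and Slc2a1 was the 1 of 30 tested members that passed the threshold of 0.05 in this comparison. Over all 15105 genes tested, 0.953% passed as lower and 10.3% as higher, so the 1 call among 30 is a count too small to read against that share.

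The call on Slc2a1 depended on single libraries. Leaving out combination replicate 1 moved the change to -2.66 (limma, adjusted p = 0.00029). Without vehicle replicate 1, 2 or 3, or combination replicate 2, 3 or 4, the change was -2.13 to -1.73 and the adjusted p 0.0556 to 0.144. Without the filter on low values the adjusted p was 0.120.

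In the single-agent groups the changes of Slc2a1 against vehicle were smaller and did not pass. Sonidegib gave -0.97 (SE 0.50, limma, adjusted p = 0.207), with sonidegib replicates 1, 3 and 4 below every vehicle library, and anti-PD-L1 gave -0.62 (SE 0.50, adjusted p = 0.437), with 3 of 4 libraries below. These comparisons and the combination share the same 4 vehicle libraries. Directly compared, the combination minus anti-PD-L1 change was -1.41 (limma, adjusted p = 0.812) and the combination minus sonidegib change -1.06 (adjusted p = 0.959). The interaction of the 2 agents was -0.44 (SE 0.71, limma, adjusted p = 0.769), with a sign that scaling turned (0.06 with median-of-ratios scaling) and a range of -1.06 (without combination replicate 1) to -0.09 (without sonidegib replicate 2) when single libraries were left out. The test across the 4 groups, which the study's design text names as the primary comparison, gave Slc2a1 an adjusted p of 0.162 (limma).

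**Figure D2:**
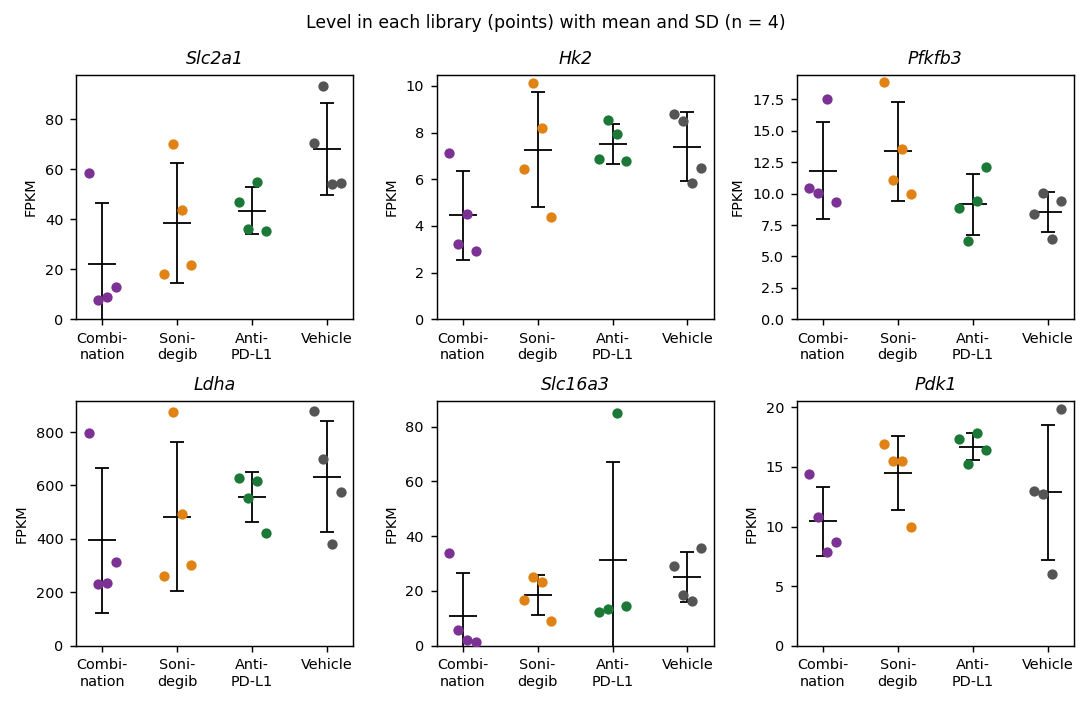
FPKM of 6 members in each library (points) by group, with the mean and SD over 4 libraries (bars, the lower bar of Slc2a1 and Slc16a3 ending at the axis). In Slc2a1, Ldha and Slc16a3 combination replicate 1 (58.5, 798 and 34.0 FPKM) lies far above the other 3 combination libraries.

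The 3 hexokinases had changes of the same sign that did not pass the test, though Hk3 turned positive with the GC trend removed. Hk2 (chr6:82725025-82774454, minus strand), the inducible isozyme of muscle and many tumours, was at 7.14, 3.24, 4.51 and 2.94 FPKM in combination, 6.44, 10.1, 8.18 and 4.37 in sonidegib, 6.86, 8.53, 7.93 and 6.78 in anti-PD-L1, and 8.81, 8.47, 5.82 and 6.47 FPKM in vehicle libraries. Again combination replicates 2, 3 and 4 were below all vehicle libraries, and the change was -0.66 (SE 0.26, limma, adjusted p = 0.0825). Hk1, the broadly expressed isozyme, averaged 77.1 ± 46.9 FPKM in combination, 87.3 ± 52.9 in sonidegib, 86.9 ± 16.3 in anti-PD-L1 and 140 ± 81.6 FPKM in vehicle tumours (SD, n = 4 each). Its libraries were at 137, 34.6, 45.3 and 91.6 FPKM in combination, 48.6, 162, 86.4 and 51.8 in sonidegib, 78.4, 111, 80.9 and 76.9 in anti-PD-L1 and 191, 228, 74.0 and 66.8 FPKM in vehicle. The vehicle libraries themselves thus differed by more than the group means, and the change of -0.85 (SE 0.48, limma, adjusted p = 0.217) did not pass and was -0.54 without combination replicate 2. Hk3, an isozyme known from myeloid cells, stayed between 0.616 and 1.31 FPKM in all 16 libraries.

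The step of glucose 6-phosphate isomerase and phosphofructokinase had negative combination minus vehicle changes in 4 of 4 genes, none past the test, and in 3 of 4 with the GC trend removed (Pfkm turned positive). Pfkp, the platelet-type phosphofructokinase, was at 85.2, 12.6, 25.1 and 61.0 FPKM in combination, 34.6, 101, 74.6 and 32.5 in sonidegib, 85.0, 68.7, 78.9 and 36.8 in anti-PD-L1, and 93.4, 145, 43.4 and 67.7 FPKM in vehicle libraries. Its change was -1.12 (SE 0.53, limma, adjusted p = 0.146), with the lowest combination values in replicates 2 and 3, and was -0.63 without combination replicate 2. The isomerase Gpi1 and the liver-type Pfkl had changes of -0.78 and -0.74, with combination replicates 2, 3 and 4 below all vehicle libraries in both. The muscle-type Pfkm had a change of -0.22.

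The bifunctional enzymes had changes of the opposite sign, except Pfkfb4 under median-of-ratios scaling (-0.10) and quantile normalization (-0.15), both of which rescale whole libraries. Pfkfb3, the isozyme with the highest ratio of kinase to phosphatase activity, was at 10.5, 10.01, 17.5 and 9.35 FPKM in combination, 18.8, 11.1, 13.5 and 9.99 in sonidegib, 8.89, 6.21, 9.41 and 12.1 in anti-PD-L1, and 8.39, 10.04, 6.36 and 9.40 FPKM in vehicle libraries. The combination change was 0.40 (SE 0.26, limma, adjusted p = 0.276) and the sonidegib change 0.57 (SE 0.26, adjusted p = 0.166), so neither passed. The combination change of Pfkfb3 was 0.08 with median-of-ratios scaling, 0.11 with quantile normalization and 0.21 without combination replicate 3. Pfkfb2 and Pfkfb4 had changes of 0.49 and 0.12 in combination tumours, and neither passed.

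From aldolase to pyruvate kinase, 11 of 12 tested genes had a negative combination minus vehicle change (9 of 12 with the GC trend removed) and none passed. Aldoa was at 1647, 347, 377 and 920.4 FPKM in combination, 662, 2029, 1145 and 674 in sonidegib, 1216, 1140.3, 1110.4 and 704 in anti-PD-L1, and 2219.7, 2643.5, 795 and 969 FPKM in vehicle libraries. Its change of -1.13 had an SE of 0.53 (limma, adjusted p = 0.145), and vehicle replicates 1 and 2 lay far above vehicle replicates 3 and 4. Eno1 (chr4:150236721-150248879, plus strand), the enolase of most tissues, was at 576, 184, 172 and 226 FPKM in combination, 364, 633, 350.3 and 337 in sonidegib, 412, 342, 458 and 378 in anti-PD-L1, and 724, 605, 277 and 435 FPKM in vehicle libraries. The same 3 combination replicates were below all vehicle libraries, with a change of -0.92 (SE 0.40, limma, adjusted p = 0.115).

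The other genes of this stretch had smaller changes than Aldoa and Eno1. The change was -0.82 for Pkm, -0.63 for the phosphoglycerate mutase Pgam1, -0.62 for the dehydrogenase Gapdh, -0.45 for the isomerase Tpi1, -0.30 for the kinase Pgk1 and -0.15 for the second aldolase Aldoc. Their unadjusted p-values in limma were between 0.0690 and 0.711. The muscle isozymes Pgam2 and Eno3, described further on, had changes of -0.19 and -0.08. Bpgm, which makes the 2,3-bisphosphoglycerate of red cells, was the 1 gene of the stretch with a positive change, at 0.69 (SE 0.34, limma, adjusted p = 0.163), and 0.24 without vehicle replicate 3.

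Eno2, the neuronal and neuroendocrine enolase, was the 1 tested member whose combination and vehicle libraries did not overlap. It was at 1.93, 1.00, 1.27 and 0.735 FPKM in combination, 3.34, 2.73, 3.80 and 1.45 in sonidegib, 3.60, 2.09, 3.20 and 2.10 in anti-PD-L1, and 2.65, 2.09, 2.64 and 2.30 FPKM in vehicle libraries. All 4 combination libraries were below all vehicle and all anti-PD-L1 libraries. The change against vehicle was -0.64 (SE 0.23, limma, adjusted p = 0.0668), and 1.27% of all genes had combination libraries wholly below vehicle. Against anti-PD-L1 it was -0.75 (SE 0.23, limma, adjusted p = 0.726), where 2.48% of all genes were wholly below and Pdk1 was the other such member. Near 1 FPKM the scale understates the change.

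At the lactate step, Ldha (chr7:46841475-46855627, plus strand), the subunit that favours lactate formation, was at 798, 232, 234 and 313 FPKM in combination, 262, 876, 493 and 302 in sonidegib, 626, 555, 618 and 424 in anti-PD-L1, and 879, 698, 381 and 575 FPKM in vehicle libraries. Below the lowest vehicle library lay combination replicates 2, 3 and 4, and sonidegib replicates 1 and 4 as well. The combination change was -0.82 (SE 0.44, limma, adjusted p = 0.195). Ldhb, the subunit abundant in heart, had a change of 0.29 (SE 0.35, limma, adjusted p = 0.580), but of -0.05 with median-of-ratios scaling, -0.04 with quantile normalization and -0.12 without vehicle replicate 3.

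The changes of the 2 lactate carriers had opposite signs in combination tumours, and neither passed. Slc16a3 (chr11:120948480-120960868, plus strand) encodes MCT4, the low-affinity exporter of glycolytic cells, and was at 34.0, 5.72, 1.99 and 1.41 FPKM in combination, 16.7, 25.2, 23.1 and 8.96 in sonidegib, 12.4, 13.3, 84.9 and 14.6 in anti-PD-L1, and 29.0, 18.6, 16.5 and 35.8 FPKM in vehicle libraries. Combination replicates 2, 3 and 4 were the lowest 3 of the 16 libraries, and anti-PD-L1 replicate 3 was the highest. The combination change was -1.95 (SE 0.77, limma, adjusted p = 0.0973). It passed only without combination replicate 1 (-2.77, limma, adjusted p = 0.00482), a library singled out after its high values were seen. The change was -1.48 without combination replicate 4 (limma, adjusted p = 0.256) and -1.58 without combination replicate 3 (adjusted p = 0.229). With the GC trend removed it was -1.58 (limma, adjusted p = 0.176). Slc16a1, which encodes MCT1, the carrier of broad expression, was at 7.67, 12.0, 4.84 and 3.76 FPKM in combination, 13.2, 8.33, 13.8 and 10.1 in sonidegib, 4.16, 7.96, 7.06 and 9.13 in anti-PD-L1, and 7.61, 3.54, 2.05 and 6.83 FPKM in vehicle libraries. All 4 sonidegib libraries lay above all 4 vehicle libraries, which held for 6.0% of all genes. The sonidegib change of Slc16a1 was 1.13 (SE 0.35, limma, adjusted p = 0.127), and 0.85 to 1.35 when single libraries were left out. It passed in 1 setting only, without vehicle replicate 4 (1.30, limma, adjusted p = 0.0177). The change in combination tumours was 0.44 (SE 0.35, limma, adjusted p = 0.388). The combination change of Slc16a1 moved with the setting. It was 0.17 with median-of-ratios scaling, 0.13 with quantile normalization, 0.15 without vehicle replicate 3 and 0.09 with the GC trend removed. Without combination replicate 4 it was larger, at 0.65.

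Pdk1, the pyruvate dehydrogenase kinase that HIF-1 is known to induce, was at 14.4, 10.8, 7.86 and 8.73 FPKM in combination, 17.0, 15.5, 15.5 and 9.93 in sonidegib, 17.4, 15.2, 17.9 and 16.4 in anti-PD-L1, and 12.96, 12.7, 5.98 and 19.9 FPKM in vehicle libraries. All 4 combination libraries were below all 4 anti-PD-L1 libraries, with a change of -0.66 (SE 0.28, limma, adjusted p = 0.827). Against vehicle the change was -0.21 (SE 0.28, limma, adjusted p = 0.634), and the vehicle libraries spanned all combination values. Pdk2 and Pdk3 had changes of -0.04 and 0.40 against vehicle, neither past the test.

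**Figure D3:**
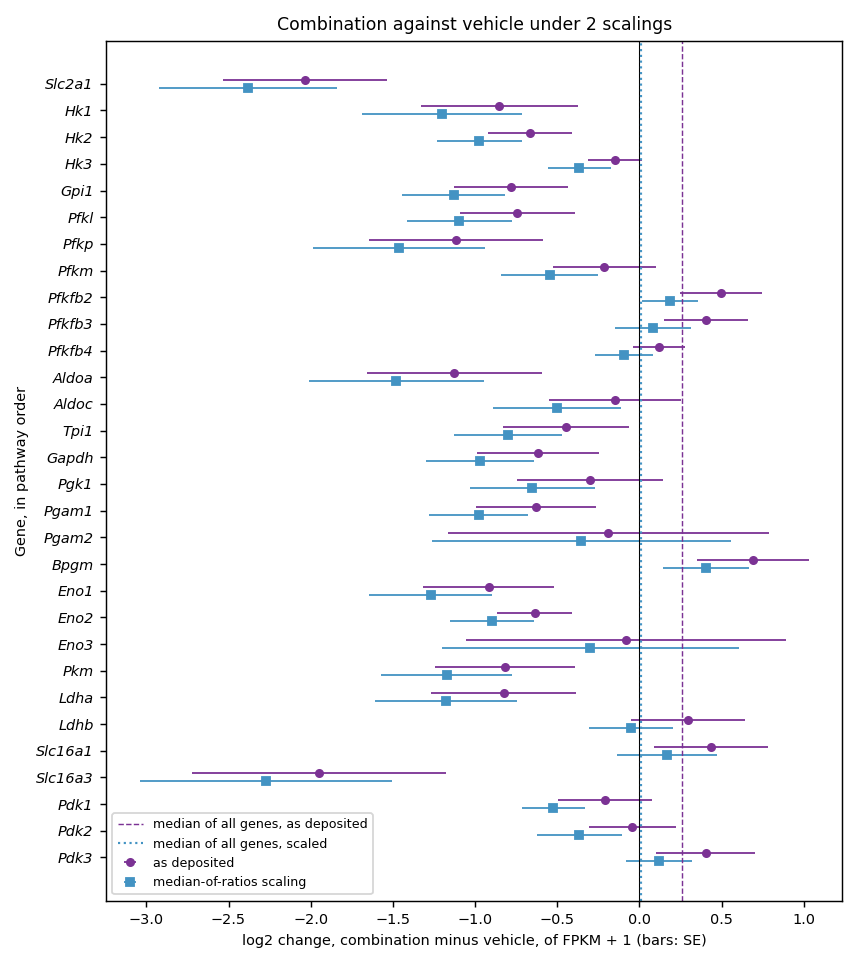
log2 change, combination minus vehicle, of log2(FPKM + 1) for 30 tested members (rows, in pathway order), with SE bars, for values as deposited (circles) and after median-of-ratios scaling (squares); vertical lines mark the median of all genes. As deposited, 23 members lie below 0 and the median of all genes lies at 0.26.

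Counted over the list, 23 of the 30 tested members had a negative combination minus vehicle change (25 with median-of-ratios scaling, 18 with the GC trend removed), with a median of -0.37 against 0.26 for all genes tested. Of the 30, 9 had an unadjusted p under 0.05, and all 9 were lower, beside 5.03% of all genes with such a p and a lower level. Leaving out 1 library moved the change by over 1.5 times, or turned its sign, in 21 of the 30 members. The sign turned in Pfkm, Aldoc, Pgk1, Pgam2, Eno3, Ldhb, Pdk1, Pdk2 and Pdk3. For sonidegib minus vehicle the median member was at 0.11 and the median gene at 0.33, and for anti-PD-L1 minus vehicle at -0.04 and 0.30. In both, limma called 0 members at an adjusted p of 0.05, as it did 0.0% of all genes in either direction, and 2 members (sonidegib) and 0 members (anti-PD-L1) had an unadjusted p under 0.05, beside 27.3% of all genes with sonidegib and 24.6% with anti-PD-L1. Combination minus anti-PD-L1 had a member median of -0.61 against -0.05 for all genes, and combination minus sonidegib -0.43 against -0.07. There too limma called 0 members. Against anti-PD-L1 5 members had an unadjusted p under 0.05 and against sonidegib 4, all lower, where 2.62% and 2.13% of all genes were lower at such a p. The calls stand beside 0.0% of all genes called lower in each and 0.00662% called higher than in anti-PD-L1 tumours.

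The remaining tests gave no call on a member either. Sonidegib minus anti-PD-L1 had 0 of 30 members called and 0 at an unadjusted p under 0.05, which 2.09% of all genes had. The interaction had 0 called and 3 with a negative value at an unadjusted p under 0.05 (9.4% of all genes), with a member median of -0.40 and a gene median of -0.35, and 0.00662% of all genes were called, as lower. The test across the 4 groups, the primary comparison by the design text, called 0 members and 0.0199% of all genes.

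Scaling changed how many members passed in combination against vehicle. With median-of-ratios scaling 7 passed as lower (Slc2a1, Hk2, Gpi1, Pfkl, Pgam1, Eno1 and Eno2), beside 8.16% of all genes lower, and with quantile normalization the same 7 and Gapdh, beside 8.66%. With median-of-ratios scaling and vehicle replicate 3 left out, 0 passed at an adjusted p of 0.05 in limma, as did 0.0% of all genes as lower. There 16 members were lower at an unadjusted p under 0.05, beside 12.9% of all genes. The member median was -0.73 with that scaling, and -0.72 with that scaling and without vehicle replicate 3.

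Combination replicate 1 stood with the vehicle tumours for most members. It lay within the vehicle range for 24 of the 30 members, below it for 3 and above it for 3. Combination replicates 2, 3 and 4 lay below all vehicle libraries for 14, 16 and 12 members. The share of all genes in these positions was not counted for single libraries. These counts thus cannot be read as particular to the members. Without combination replicate 1, 11 of 30 members passed as lower (Slc2a1, Hk2, Gpi1, Pfkl, Pfkp, Aldoa, Eno1, Eno2, Pkm, Ldha and Slc16a3), beside 4.5% of all genes. In that fit Slc2a1 was also lower than in anti-PD-L1 tumours (-2.03, limma, adjusted p = 0.00855) and sonidegib tumours (-1.68, adjusted p = 0.0423), and Slc16a3 was lower than in anti-PD-L1 tumours, beside 0.271% of all genes lower than in anti-PD-L1 and 0.0662% lower than in sonidegib tumours. Combination replicate 1 was singled out after its high values of these genes were seen. With it kept, none of these differences from anti-PD-L1 or sonidegib tumours passed.

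Other cell types and base composition moved with these libraries. The summed level of 7 T cell markers, of which 3 were tested and all 3 were higher in combination than vehicle (10.3% of all genes were), was 2.34 FPKM in combination replicate 1 and 19.9, 18.2 and 23.1 in replicates 2, 3 and 4, against 1.72 to 7.16 in sonidegib, 4.39 to 8.64 in anti-PD-L1 and 1.37 to 3.61 FPKM in vehicle libraries. No T cell marker was listed at 0 in any library, but the untested ones fell below the filter on low values. Trac reached 1 FPKM in 4 libraries only with the combination libraries counted. The 3 of 3 are thus partly fixed by the filter and cannot be read against the share of all genes. The sum of 5 adipocyte markers was highest in combination replicate 1, at 45.7 FPKM, against 6.002 to 7.57 in combination replicates 2 to 4, 2.29 to 7.65 in sonidegib, 2.07 to 12.4 in anti-PD-L1 and 0.622 to 3.93 FPKM in vehicle libraries. Of the other marker lists, Mrc1 passed among 6 macrophage genes and Fabp4 as the 1 tested adipocyte gene, both higher, while 0 of 4 neutrophil, 0 of 4 endothelial, 0 of 5 erythroid and 0 of 7 muscle genes passed. The fibroblast sum (3 of 6 genes higher: Dcn, Lum and Pdgfra) was 161 to 256 FPKM in combination, 131 to 232 in sonidegib, 109.9 to 272 in anti-PD-L1 and 104 to 167 FPKM in vehicle libraries. Of the epithelial markers 0 of 5 passed, and their sum of 1644 FPKM in combination replicate 1 compares with 793 to 864 FPKM in the remaining combination libraries. That gap lay in the keratins Krt8, Krt18 and Krt19. Epcam (285.7 against 264.6 to 307.3 FPKM) and Cdh1 (58.9 against 49.5 to 60.4 FPKM) lay within the range of the remaining combination libraries. The slope of the log2 deviation on GC content was 2.13, -3.24, -2.81 and -3.87 log2 units per unit of GC fraction in combination replicates 1 to 4, against 4.55, 3.32, 3.69 and -0.51 in vehicle replicates. It was -2.105, 2.72, -0.895 and 0.336 in sonidegib and -1.74, -1.99, 0.246 and 0.17 in anti-PD-L1 replicates 1 to 4. The tested members had a median GC content of 53.2% and all genes 49.3%. With this GC trend removed, Slc2a1 had a change of -1.78 (limma, adjusted p = 0.0417) and was the 1 member past the threshold, beside 0.232% of all genes lower. In that fit the member median was -0.32 against 0.27 for all genes, and the change was -0.35 for Eno2, -0.51 for Eno1, -0.49 for Hk1 and -0.74 for Aldoa. The 37 mitochondrially encoded genes summed to 23541, 44952, 21495 and 40978 FPKM in combination replicates 1 to 4, 15827 to 25728 in sonidegib, 15366 to 22164 in anti-PD-L1 and 15011, 7432, 6450.0 and 33433 FPKM in vehicle replicates 1 to 4. The part of cell makeup and of mitochondrial RNA in these differences was not tested.

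Ratios between isozymes of the same library do not depend on library scaling, but they can depend on base composition. The GC content of the longest transcript was 56.6% for Slc16a3 and 42.9% for Slc16a1. With the GC trend removed, the combination minus vehicle change went from -1.95 to -1.58 for Slc16a3 and from 0.44 to 0.09 for Slc16a1. The shares given here use the FPKM as deposited. The share of Slc16a3 in the sum of Slc16a1 and Slc16a3 was 81.6, 32.3, 29.2 and 27.2% in combination replicates 1 to 4, and 42.6 ± 26.1% in combination, 60.2 ± 11.8% in sonidegib, 72.8 ± 14.3% in anti-PD-L1 and 84.0 ± 3.96% in vehicle tumours (SD, n = 4 each). Vehicle libraries kept to a range of 79.2 to 88.9%, and all 4 sonidegib libraries lay below it. The difference from vehicle was -23.9 percentage points in sonidegib (exact two-sided permutation test, p = 0.0286, the smallest that 4 against 4 allows, adjusted p = 0.415 over 27 tests) and -41.5 in combination tumours (exact p = 0.0571, adjusted p = 0.415). The share of Ldha in the 2 lactate dehydrogenases was 82.8 ± 6.87% in combination, 84.7 ± 5.41% in sonidegib, 89.8 ± 2.21% in anti-PD-L1 and 91.6 ± 3.02% in vehicle tumours. Aldoc made up 20.9 ± 14.2% of the aldolase sum in combination, 15.1 ± 4.31% in sonidegib, 12.5 ± 2.35% in anti-PD-L1 and 10.2 ± 2.54% in vehicle tumours. None of the 27 tests over 9 shares passed after adjustment, and 1 of them reached the smallest exact p, a value that cannot pass an adjustment over 27 tests unless most of the others are as small.

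**Figure D4:**
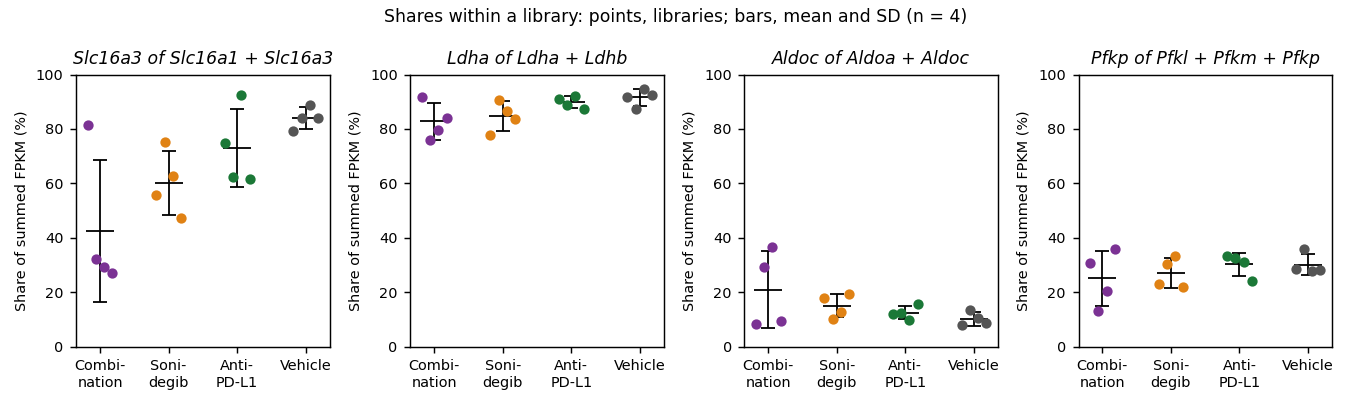
Share in percent of 1 isozyme in the summed FPKM of its family, per library (points), with mean and SD over 4 libraries, by group. The Slc16a3 share has its narrowest spread in vehicle (84.0 ± 3.96%) and its widest in combination tumours (42.6 ± 26.1%), where replicate 1 is at 81.6%.

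Isozymes of skeletal muscle stood out in single libraries of 3 groups. Eno3, the muscle enolase, and Pgam2, the muscle phosphoglycerate mutase, were highest in anti-PD-L1 replicate 2 (37.0 and 22.5 FPKM), combination replicate 4 (17.9 and 10.2 FPKM) and vehicle replicate 1 (17.7 and 9.94 FPKM). In the other 13 libraries Eno3 lay between 0.817 and 7.14 FPKM and Pgam2 between 0.174 and 4.24 FPKM. The same 3 libraries had the highest sums of 7 skeletal muscle markers, at 445, 245 and 158 FPKM, against 4.07 to 85.5 in the other 13. Pdk4, the kinase abundant in muscle and fasting tissues, reached 1.34 FPKM in anti-PD-L1 replicate 2 and 0.499 or less elsewhere. In exact two-sided permutation tests of mean FPKM against vehicle, Pdk4 gave p = 0.257 in combination, 0.200 in sonidegib and 0.514 in anti-PD-L1, and Slc2a3 gave 0.543, 0.914 and 0.743.

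**Figure D5:**
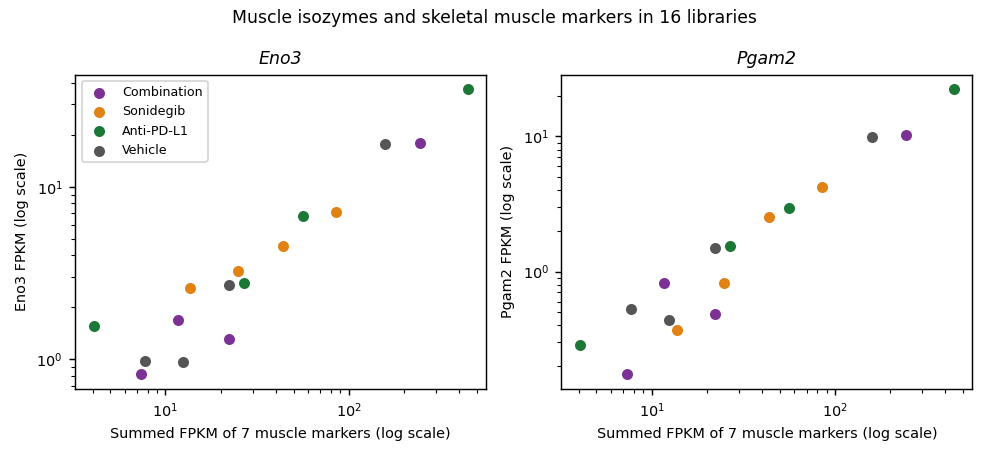
FPKM of the muscle isozymes Eno3 and Pgam2 (vertical axes, log scale) against the summed FPKM of 7 skeletal muscle markers (horizontal axes, log scale) in 16 libraries, coloured by group. The 3 libraries with marker sums of 158 FPKM or more hold the 3 highest values of both genes.

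Neighbouring pathways were read from lists of genes outside the 33. Of 14 measured HIF targets outside glycolysis, 3 were lower in combination than vehicle, beside 0.953% of all genes, with a list median of -0.76 against 0.26 for all genes. These were the adenylate kinase Ak4 (-1.55, limma, adjusted p = 0.0357), Ddit4, which restrains mTOR signalling (-1.06, adjusted p = 0.0448) and the carbonic anhydrase Car9 (-0.98, adjusted p = 0.0456). Vegfa averaged 19.3 ± 12.7 FPKM in combination, 37.3 ± 16 in sonidegib, 46.7 ± 24.6 in anti-PD-L1 and 33.9 ± 12.7 FPKM in vehicle tumours (SD, n = 4 each), with a change against vehicle of -0.92 that did not pass (limma, adjusted p = 0.175). None of the 12 regulators passed, among them Hif1a at 0.34 and Myc at -0.07.

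On the side of pyruvate oxidation, 3 of 10 genes were higher in combination than vehicle, where 10.3% of all genes were. They were the 2 subunits of the mitochondrial pyruvate carrier, Mpc1 (1.18, limma, adjusted p = 0.0498) and Mpc2 (0.98, adjusted p = 0.0438), and Dld, a dehydrogenase subunit of the pyruvate dehydrogenase complex (1.29, adjusted p = 0.0448). The list median was 0.58 against 0.26 for all genes. It was of like size in the single-agent groups against vehicle. There it was 0.54 in sonidegib (0.33 for all genes) and 0.47 in anti-PD-L1 tumours (0.30 for all genes). Combination minus anti-PD-L1 had a list median of 0.07, and combination minus sonidegib 0.08. Among glycogen and gluconeogenesis genes 1 of 10 tested was higher, the fructose bisphosphatase Fbp1 (0.90, limma, adjusted p = 0.0398), a share near the 10.3% of all genes, and 0 of 7 pentose phosphate genes passed. In the 7 other comparisons 0 genes of these lists passed. These 7 calls were as sensitive to single libraries as those on the members: the count was 0 without vehicle replicate 1, 2 or 3, or combination replicate 2, 3 or 4, and 15 without combination replicate 1. With the GC trend removed it was 2.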

How the data were processed

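RNA of 16 tumours was isolated with Qiazol. Per the labels' protocols ribosomal RNA was depleted and libraries keep strand, but the molecule is labelled as polyA RNA; which holds was not resolved. The authors deposited FPKM, 1 column per library, made with TopHat and Cufflinks on builds listed as mm10 and GRCm38.p6, per the submitters' processing notes. Neither tool versions nor the annotation are stated there. FPKM divides out transcript length and mapped fragments, so abundant transcripts and differing RNA makeup shift other genes. Whole fragment counts were not recovered from the values, with 25.3 to 35.5% of low values within 0.1 of a whole fragment.

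Values were used as log2(FPKM + 1), which understates changes of genes near 1 FPKM. The 15105 genes that reached 1 FPKM in 4 or more libraries were fitted with limma 3.58.1 (R 4.3.3, intensity trend, robust variance) with 1 mean per group over 16 libraries, without further scaling. Tests were two-sided with Benjamini-Hochberg adjustment over all genes at 0.05. For shares and for members below the filter, exact permutation tests, two-sided, were used (scipy 1.17.1). Gene positions are from GENCODE release M21 on GRCm38, and upstream sequences from RefSeq (GRCm38.p6).

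Members and lists were chosen with earlier results of these data known. Values per library are given for members past the threshold, the 6 largest changes in combination against vehicle, and Slc2a1, Hk2, Pfkfb3, Ldha, Slc16a3 and Pdk1. Eno2, Slc16a1, Pgam2, Eno3 and Pdk4 were described after their values were seen, as were combination replicate 1 and vehicle replicate 3. Of the listed HIF targets, Ero1a was matched by its other symbol Ero1l. Other settings were quantile normalization, median-of-ratios scaling, a pseudocount of 0.1, other filters, a replicate block, removal of the GC trend (a spline with 5 degrees of freedom), plain limma and leaving out each library.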

Additional observations from a re-analysis of the deposited data

Results flagged for a closer look

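In each group of 4 libraries, a value was singled out when its gap to the nearest other library took up more of the range of the group than Dixon's 95% critical value. Of 168 groups of values, 24 held such a value. The 168 include the groups of Pklr, to which the rule was not applied. The groups share the same libraries, and the shares are built from the same genes. They are thus not independent, and the count of 24 cannot be read against a chance rate of 1 in 20.

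Combination replicate 1 was far above the other 3 combination libraries in 7 members. It had 58.5 FPKM for Slc2a1 (7.73 to 13 in the others), 169 for Gpi1 (65.3 to 73.5), 433 for Gapdh (150.1 to 191), 576 for Eno1 (172 to 226), 926 for Pkm (253 to 302), 798 for Ldha (232 to 313) and 34.0 FPKM for Slc16a3 (1.41 to 5.72). Its Slc16a3 share of the 2 monocarboxylate carriers, 81.6%, was also far above the 27.2 to 32.3% of the others.

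The muscle isozymes stood out in 1 library each of 3 groups. Combination replicate 4 had 10.2 FPKM for Pgam2 and 17.9 for Eno3, anti-PD-L1 replicate 2 had 22.5 and 37.0, and vehicle replicate 1 had 9.94 and 17.7 FPKM. Vehicle replicate 1 also had 0.328 FPKM for Pdk4, against 0.0189 to 0.0692 in the other vehicle libraries. The share of Eno1 among the enolases was correspondingly low, at 92.4% in combination replicate 4 and 89.7% in anti-PD-L1 replicate 2.

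The remaining values were single genes. Combination replicate 3 had 17.5 FPKM for Pfkfb3 and combination replicate 4 had 12.1 for Pdk3. Sonidegib replicate 2 had 633 FPKM for Eno1 (337 to 364 in the others). Anti-PD-L1 replicate 2 had 111 FPKM for Hk1, and anti-PD-L1 replicate 3 had 84.9 for Slc16a3 (12.4 to 14.6 in the others). Vehicle replicate 3 had 63.0 FPKM for Pgam1 (158 to 169.9 in the others), and vehicle replicate 2 a Pfkp share of 35.8% (27.9 to 28.5% in the others).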

How the results depend on the processing

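In combination against vehicle, 1 member passed as lower in the fit described, 8 after quantile normalization, 7 under median-of-ratios scaling and 0 without the filter on low values (the cause was not tested). It was 0 with median-of-ratios scaling and without vehicle replicate 3, a setting chosen after seeing the data. It was 1 with a pseudocount of 0.1, a filter on the mean, a replicate block, the GC trend removed, both together, or plain limma. Leaving out single libraries gave 0 to 11 members there, 0 to 3 across the 4 groups, 0 to 1 in sonidegib against vehicle (Slc16a1, without vehicle replicate 4), 0 to 2 in combination against anti-PD-L1 and 0 to 1 in combination against sonidegib. In the other comparisons of members it was 0 throughout. The change of Pdk1 in combination against vehicle ranged over -0.504 to 0.0217, the positive end being without vehicle replicate 4, and the interaction of Slc2a1 was 0.0622 with median-of-ratios scaling. The genes of other pathways past the threshold numbered 7, and 0 to 15 without single libraries, 11 with quantile normalization, 3 with the replicate block, 2 with the GC trend removed and 0 without a filter.

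Deviations of same-numbered libraries from their group means had correlations of -0.434 to 0.343, with 4 of 24 above 0.1. The labels do not say whether the numbers pair the tumours. With 4 libraries a group these correlations cannot settle it. With 4 libraries a group and values spread widely within groups, small changes of members could not be told from the spread.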
